A study of Mus musculus with 4 samples.

Results

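The 9 classic markers of tubular injury, *Havcr1*, *Lcn2*, *Krt20*, *Krt8*, *Krt18*, *Vcam1*, *Sox9*, *Clu* and *Vim*, were followed by name through a table of 19609 genes in nuclei of the mouse kidney cortex. All 9 had a row, and their levels were read in 23 clusters of 4 mice, which gave 92 values for each gene. Single-nucleus RNA sequencing was made on 1 male mouse of mixed strain for each of 4 conditions. The study asked how the transcription factor KLF6 bears on acute injury by aristolochic acid I (AAI), a plant toxin that is taken up by the proximal tubule (PT) and forms DNA adducts. Control mice carried TRE-hKLF6 alone, a human *KLF6* transgene behind a tetracycline response element that is silent without its activator. hKLF6OE mice carried CAG-rtTA,TRE-hKLF6, so that doxycycline switches the transgene on in cells throughout the body, since the CAG promoter is active in most cell types, and not in the tubule alone. Mice of both genotypes were fed doxycycline at 200 mg/kg of diet. AAI was a single injection of 2 mg/kg, and kidneys were taken 24 hours later. The mice without AAI are labelled as untreated, and the study's methods name the solvent DMSO as its control injection. The 4 conditions are named control, control with AAI, hKLF6OE and hKLF6OE with AAI. Each is 1 mouse, so no spread between mice is known, no test was made between conditions, and every value describes these mice.

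When a tubule cell is damaged it loses functions of the mature epithelium and switches on genes of stress, repair and dedifferentiation. *Havcr1* encodes KIM-1, a surface receptor with which injured PT cells take up debris, and *Lcn2* encodes NGAL, an iron-carrier binding protein secreted by stressed tubules. *Krt8*, *Krt18* and *Krt20* encode keratins, *Vim* the filament protein vimentin of mesenchymal and dedifferentiated cells, *Vcam1* a leukocyte adhesion molecule, *Sox9* a transcription factor of regenerating tubule cells, and *Clu* the secreted chaperone clusterin. Several of these genes are also at work in healthy kidney: vimentin in podocytes, endothelium and mesangium, VCAM-1 in endothelium, and keratins 8 and 18 in simple epithelium.

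*Krt20* and *Havcr1* carried the clearest pattern below, so the sequence before an annotated start of each is shown. Both are from RefSeq on GRCm38.p6, the 250 bases before the annotated start, read 5′ to 3′ on the strand of the gene. The *Krt20* stretch lies at chr11:99438154-99438403 on the minus strand, and capitals mark TATAAA at bases -29 to -24. The *Havcr1* stretch lies at chr11:46739973-46740222 on the plus strand, before the most upstream of 3 RefSeq starts, and held no match. It lies inside the longer GENCODE gene model of *Havcr1*, which begins further upstream.
Krt20: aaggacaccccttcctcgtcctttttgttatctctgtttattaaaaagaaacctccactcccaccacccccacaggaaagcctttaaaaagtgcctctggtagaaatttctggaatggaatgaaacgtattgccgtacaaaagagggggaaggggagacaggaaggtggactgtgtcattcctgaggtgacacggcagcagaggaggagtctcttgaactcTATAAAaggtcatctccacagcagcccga
Havcr1: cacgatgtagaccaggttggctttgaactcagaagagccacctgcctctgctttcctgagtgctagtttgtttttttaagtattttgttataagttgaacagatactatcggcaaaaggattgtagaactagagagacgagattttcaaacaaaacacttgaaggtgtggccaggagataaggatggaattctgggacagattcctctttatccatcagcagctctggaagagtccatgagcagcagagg
On both strands of 300-base windows (250 before and 50 after the start), GGGCGG, the GC box bound by KLF and Sp factors, was found in 35.7% of 32851 windows of all genes, TGANTCA, the site of AP-1, in 7.81%, and TATAAA in 13.6%. RefSeq windows were held for 6 of the 9 markers and not for *Vcam1*, *Sox9* and *Clu*. *Lcn2* held the GC box at -94 to -89, and the *Havcr1* window furthest downstream held TGAATCA at 10 to 16. TATAAA was also found in *Vim* at -32 to -27 and in *Krt8* at -1 to 4, with an overlapping match on the other strand, and *Krt18* held none of the 3 motifs. These are matches of letters and not shown sites.

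Each value is the mean, over the nuclei of 1 cluster in 1 mouse, of counts scaled to 10000 per nucleus, on a linear scale. Clusters outside the PT are named as in the study: LH-DL and LH-AL for the descending and ascending limbs of the loop of Henle, DCT and CNT for the distal convoluted and connecting tubule, CD_PC for principal cells, IC for intercalated cells, EC for endothelium and MC for mesangial cells. A value was marked too low to read when it was 0 or under 3 times the 5th percentile of the values above 0 in its own column, because a mean over few nuclei gives a single count a high value. Of 828 values of the 9 markers, 332 were at 0 and 158 were above 0 but too low, which is 59.2% together, against 49.0% of the values of all genes. Only 43 of the 828 reached 0.5, and none of them lay in the 5 normal PT clusters (PT-S1-S2-1, PT-S1-S2-2, PT-S3-1, PT-S3-2 and PT-S3-3), where the highest was 0.283 for *Clu*. Of 92 values each, *Krt8* was readable in 83, *Clu* in 80, *Vim* in 64, *Vcam1* in 33, *Krt18* in 31, *Havcr1* in 27, *Krt20* in 11, *Sox9* in 9 and *Lcn2* in 0. The injured clusters, InjuredPT-A and InjuredPT-B, were sparse in the mice without AAI: 62.6% and 51.3% of all genes were at 0 there in control, and 40.8% and 55.7% in hKLF6OE, against 22.2% to 29.7% with AAI.

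**Figure D1:**
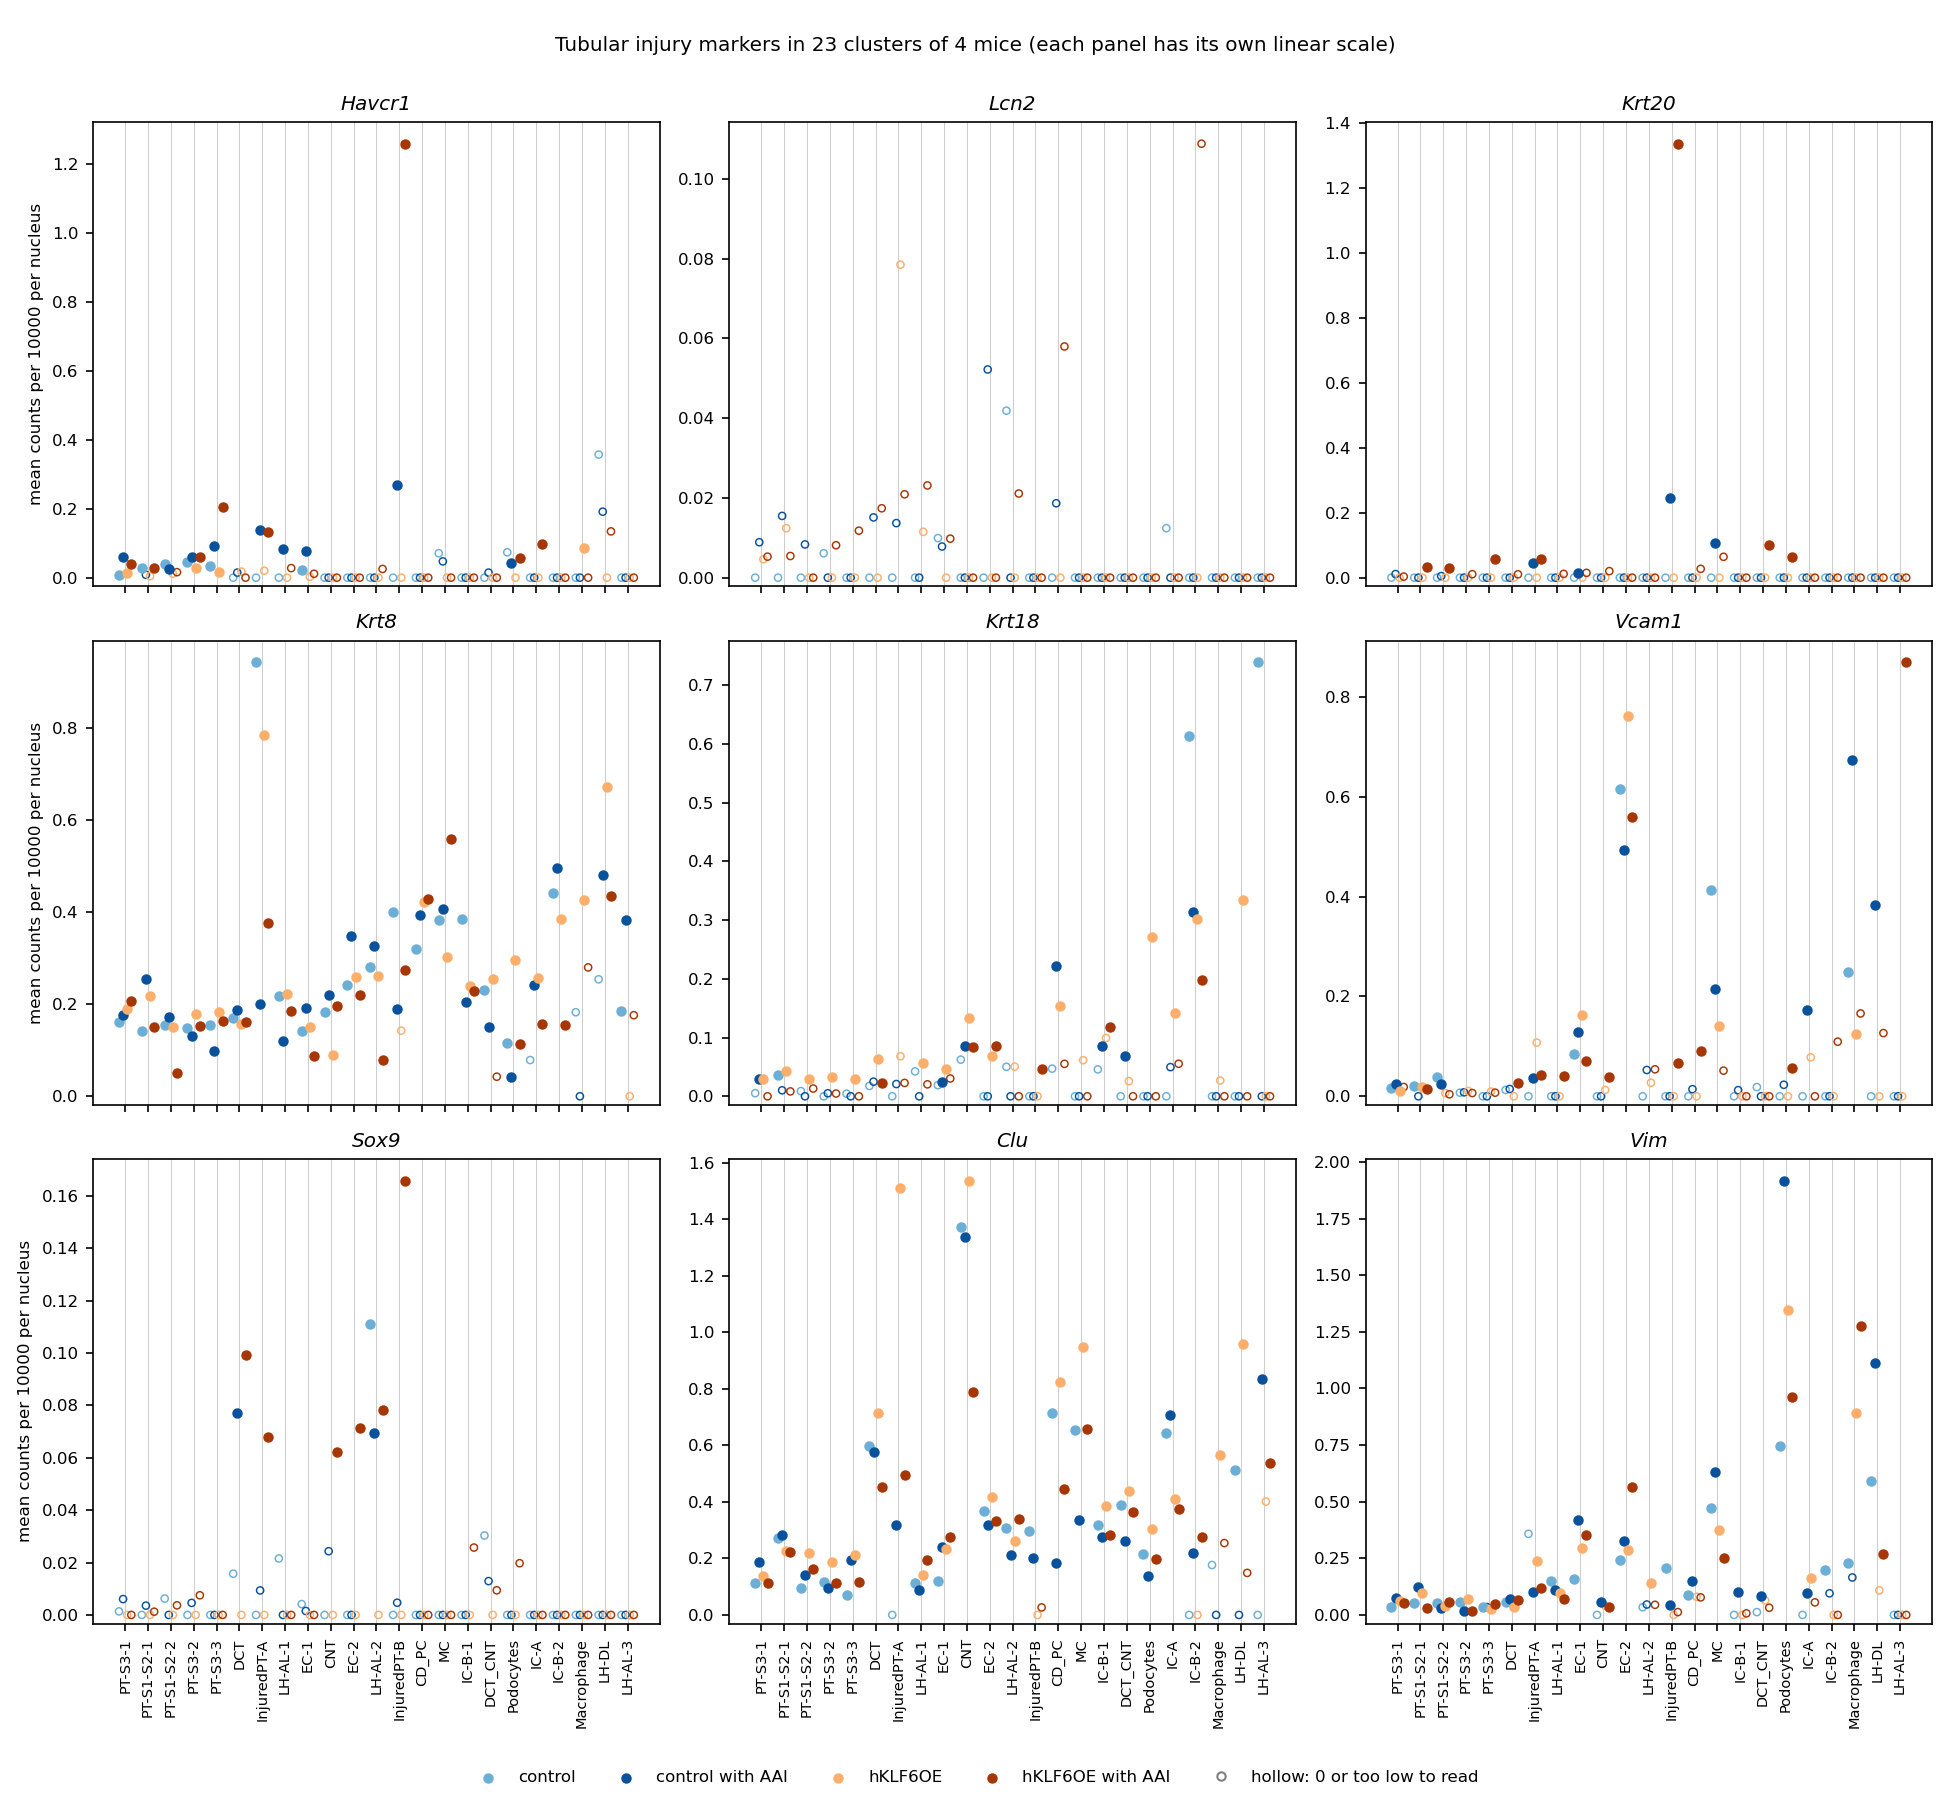
Level of each marker (mean counts per 10000 per nucleus, linear, a scale for each panel) in 23 clusters of the 4 mice. Filled points are readable and hollow points are 0 or too low to read; *Krt20* and *Havcr1* peak in InjuredPT-B with AAI, while *Clu*, *Vim* and *Vcam1* peak outside the PT.

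**Figure D2:**
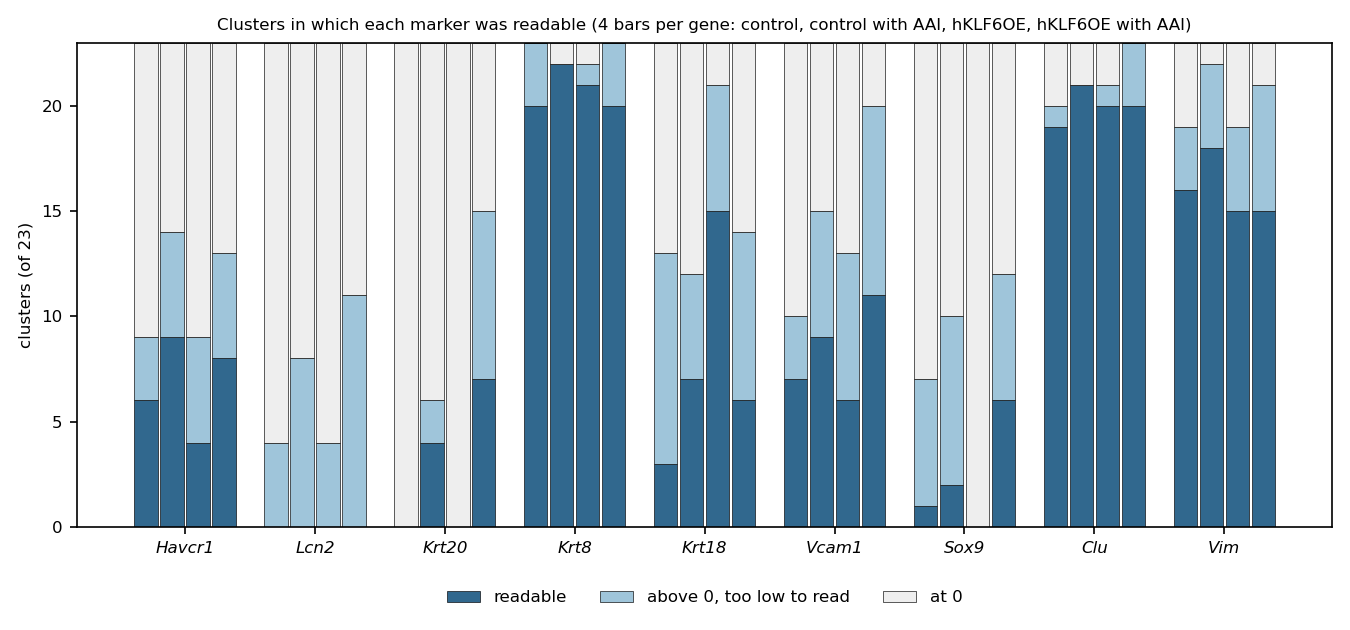
Number of the 23 clusters in which each marker was readable, above 0 but too low, or at 0, with a bar for each mouse. *Lcn2* has no readable value, *Krt20* and *Sox9* are all at 0 in hKLF6OE without AAI, and *Krt18* is readable in 15 clusters of that mouse against 3 to 7 in the others.

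Checks of the whole table were brief. PT markers (7 genes, among them *Slc34a1* and *Lrp2*) summed to 32.7 in InjuredPT-A and 46.9 in InjuredPT-B of control with AAI. In hKLF6OE with AAI the sums were 48.3 and 32.3. Without AAI they were 96.9 and 108 in control and 79 and 82.7 in hKLF6OE. In EC-1, a cluster named as endothelium, they ran from 73.7 to 94.7. Of the targeted gene, only mouse *Klf6* is listed, and a human transcript is not among the rows, so that the genotype labels could not be checked on it. The *Klf6* mean over the 5 normal PT clusters was 0.215 in control, 0.406 in control with AAI, 0.137 in hKLF6OE and 0.327 in hKLF6OE with AAI. The cluster LH-DL was highest of all clusters for the parietal markers *Ncam1* and *Pax8*, though not *Cldn1* (highest in Macrophage), and for all 3 thin limb markers. It was second for the podocyte markers *Nphs1* and *Wt1*, and EC-2 was second for *Podxl*. The Macrophage cluster had a summed endothelial marker level of 13.7 to 25.4 beside 27.0 to 31.8 for leukocyte markers. In all, 15 of the 92 columns had over 50% of genes at 0, among them all 4 of LH-AL-3 and 3 each of LH-DL and IC-B-2.

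*Krt20*, a keratin of differentiated surface epithelium that healthy tubule lacks, was at 0 in all 46 columns of the mice without AAI. With AAI it was above 0 in 6 clusters of control and in 15 of hKLF6OE. The highest level in each was in InjuredPT-B, at 0.245 in control with AAI and 1.34 in hKLF6OE with AAI. InjuredPT-A stood lower, at 0.044 and 0.0571. In the normal PT clusters with AAI, no value was readable in control, and 3 of 5 were in hKLF6OE: 0.0343 in PT-S1-S2-1, 0.0292 in PT-S1-S2-2 and 0.0589 in PT-S3-3. In clusters named for other cells, *Krt20* was readable with AAI in MC (0.106, control), EC-1 (0.0155, control), DCT_CNT (0.100, hKLF6OE) and podocytes (0.0626, hKLF6OE), though PT markers summed to 78.6 in that EC-1 column. InjuredPT-A and InjuredPT-B were the clusters in which it was readable in both AAI-treated mice. Of all genes, 809 (4.13%) were at 0 in the 46 columns without AAI, and of the 10446 genes readable in InjuredPT-B of both AAI-treated mice 9 (0.0862%) were. *Krt20* is itself among these 9. It was singled out with its values in view and enters that subset through the cluster where it is high, so the share is a description.

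*Havcr1*, the receptor KIM-1, had a low but readable level in PT without injury. Over the 5 normal PT clusters its mean was 0.0310 in control, 0.0491 in control with AAI, 0.0145 in hKLF6OE and 0.0694 in hKLF6OE with AAI, and the ranges of the 5 clusters overlapped between all 4 mice. It was higher with AAI in 8 of 10 pairs of these clusters and genotypes. In control it was lower in PT-S1-S2-1 (0.0286 to 0.00824, the latter too low to read) and in PT-S1-S2-2 (0.0383 to 0.0251), and in hKLF6OE it was higher there (0.00439 to 0.0293 and 0.0117 to 0.0159, of which 0.0293 alone was readable). In the PT-S3 clusters, the last part of the PT, it was higher in 6 of 6 pairs. PT-S3-1 went from 0.00862 to 0.0598 in control and from 0.0125 to 0.0393 in hKLF6OE. PT-S3-2 went from 0.0451 to 0.0612 and from 0.0273 to 0.0586. PT-S3-3 went from 0.0345 to 0.0909 and from 0.0167 to 0.204. The ratios ran from 1.36 to 6.94 in control and from 2.15 to 12.2 in hKLF6OE. These 3 clusters were singled out after the values were seen, and 9.08% of 11602 genes readable on either side in all 6 pairs were likewise higher in each. *Krt8* and *Clu* were higher in 2 of 6 and *Vim* in 3 of 6.

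In InjuredPT-B, *Havcr1* was at 0 in control, 0.270 in control with AAI, 0 in hKLF6OE and 1.26 in hKLF6OE with AAI. In InjuredPT-A the values were 0, 0.139, 0.0201 and 0.133, of which those without AAI were too low to read. The sparse columns without AAI could have read only a value over 0.202 in control and 0.288 in hKLF6OE for InjuredPT-B, so the level of 0.270 in control with AAI would not have been readable in the hKLF6OE column. InjuredPT-B had the highest *Havcr1* of all 23 clusters in both AAI-treated mice, and likewise the highest *Krt20*. Without AAI the highest mean of *Havcr1* was in LH-DL, from a value of 0.357 in control that was too low to read.

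**Figure D3:**
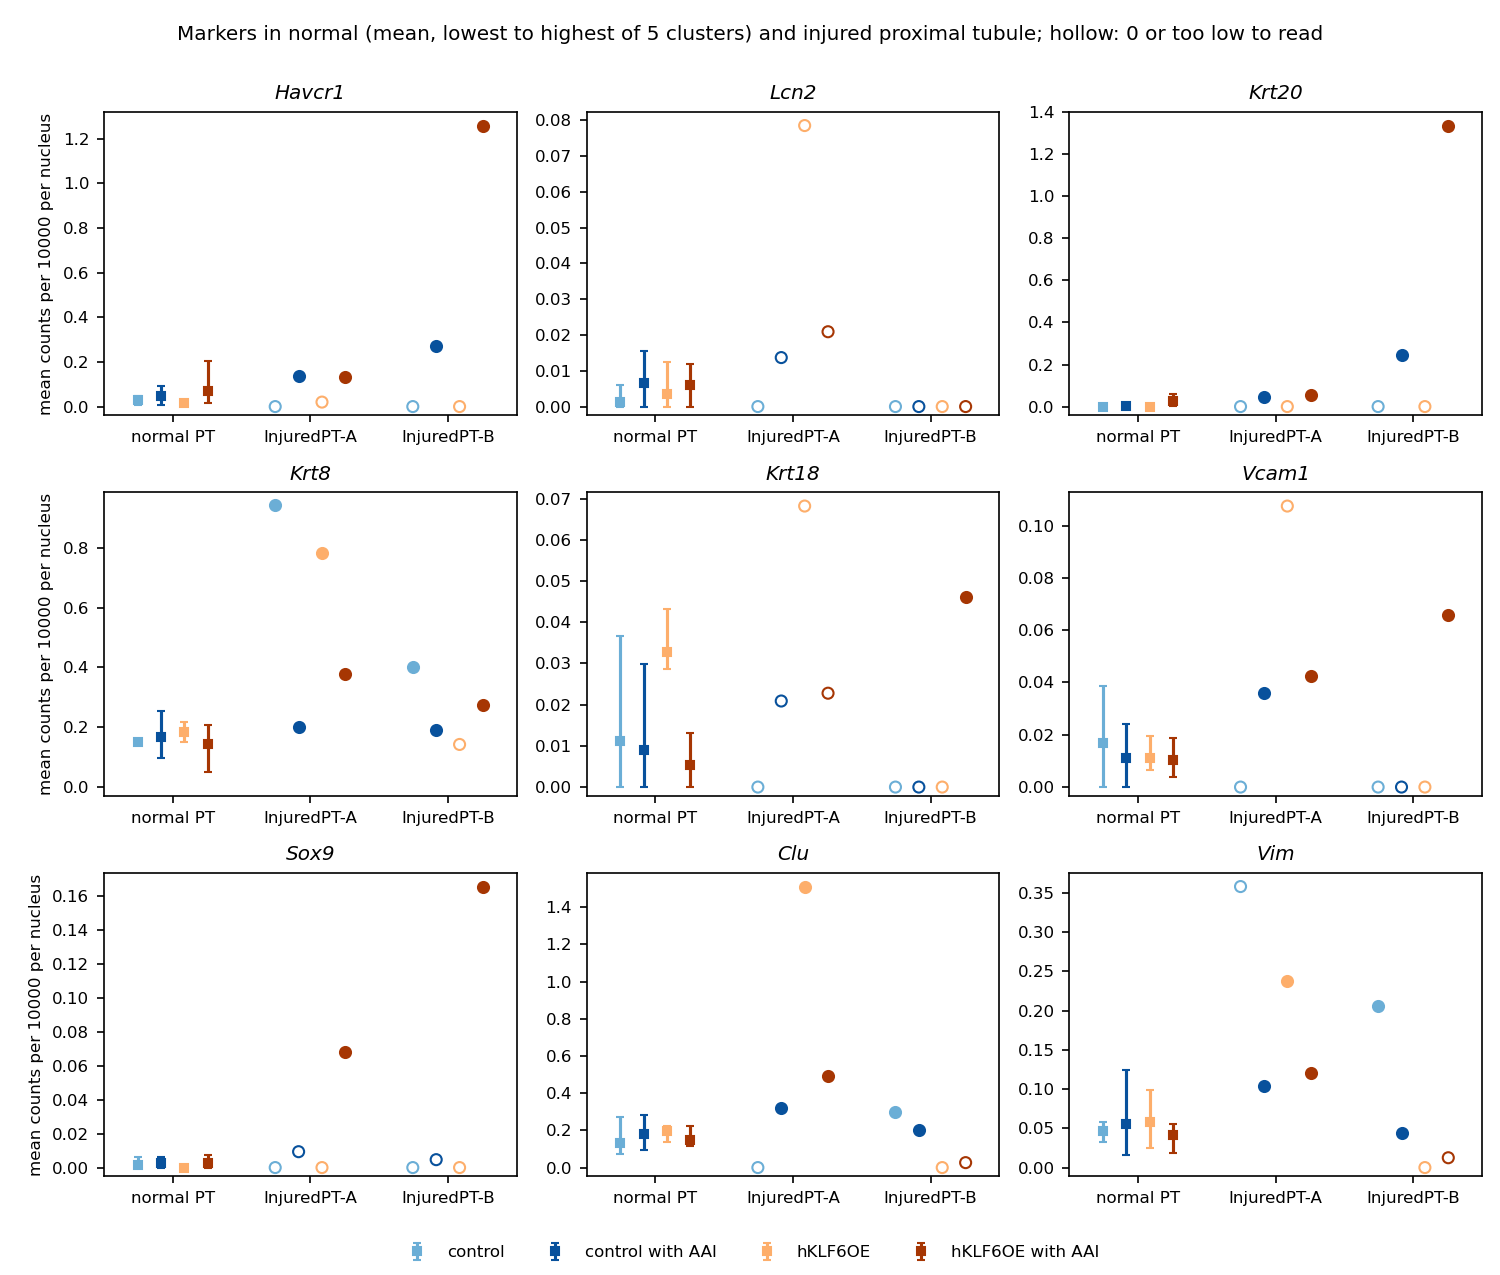
Levels (mean counts per 10000 per nucleus) of the 9 markers in normal PT (square, mean of 5 clusters, with bars from the lowest to the highest cluster) and in the injured clusters (circles, hollow where 0 or too low to read) of the 4 mice. In InjuredPT-B with AAI, *Havcr1* and *Krt20* lie above every normal PT cluster of the same mouse.

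Injured and normal PT were compared within each AAI-treated mouse, as the question of which markers set the injured nuclei apart. The clusters were formed from these same nuclei, so the comparison is a description. By the rule used over all genes, a difference of log2(value + 1) of at least 0.2 the same way in both mice with a larger value of at least 0.5 in each, 0 of the 9 markers were abundant enough to be counted in either cluster. Over all genes 43.3% of 5008 were higher in InjuredPT-A and 27% lower, and 23.4% of 4148 were higher in InjuredPT-B and 13.1% lower. A rule for low values was therefore added after the data were seen: a difference of log2(value + 0.1) of at least 1 the same way in both mice, where the larger of the injured and the normal value is at or above the floor of the injured column. In InjuredPT-B it could be applied to 5 markers, *Havcr1*, *Krt20*, *Krt8*, *Clu* and *Vim*, and 2 were higher and 0 lower, against 1.2% of 11166 genes higher and 1.29% lower. *Havcr1* was higher by 1.31 in control and 3.00 in hKLF6OE and *Krt20* by 1.74 and 3.50. Both genes passed through the injured cluster where they are high, and no normal PT value of *Krt20* was readable in control with AAI, so the count is a description and supports nothing further. *Krt8* stood at 0.189 and 0.275 against normal PT means of 0.167 and 0.145. *Clu* was at 0.202 against 0.180 in control and at 0.0265 against 0.146 in hKLF6OE, and *Vim* at 0.0446 against 0.0560 and at 0.0125 against 0.0414, and the last value of each gene in InjuredPT-B was too low to read.

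In InjuredPT-A the rule could be applied to 6 of the 9 markers, and 0 differed by 1 in both mice, where 13.2% of 12355 genes were higher and 6.35% lower. *Clu* differed most in hKLF6OE, at 0.319 against 0.180 in control and 0.494 against 0.146 in hKLF6OE, and *Havcr1* most in control. *Vim* was at 0.103 against 0.0560 and 0.121 against 0.0414, and *Vcam1* at 0.036 against 0.0112 and 0.0426 against 0.0104. The differences of *Krt20* and *Havcr1* were 0.48 and 0.68 in InjuredPT-A of control and 0.30 and 0.46 in that of hKLF6OE, below those in InjuredPT-B of the same mouse.

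**Figure D4:**
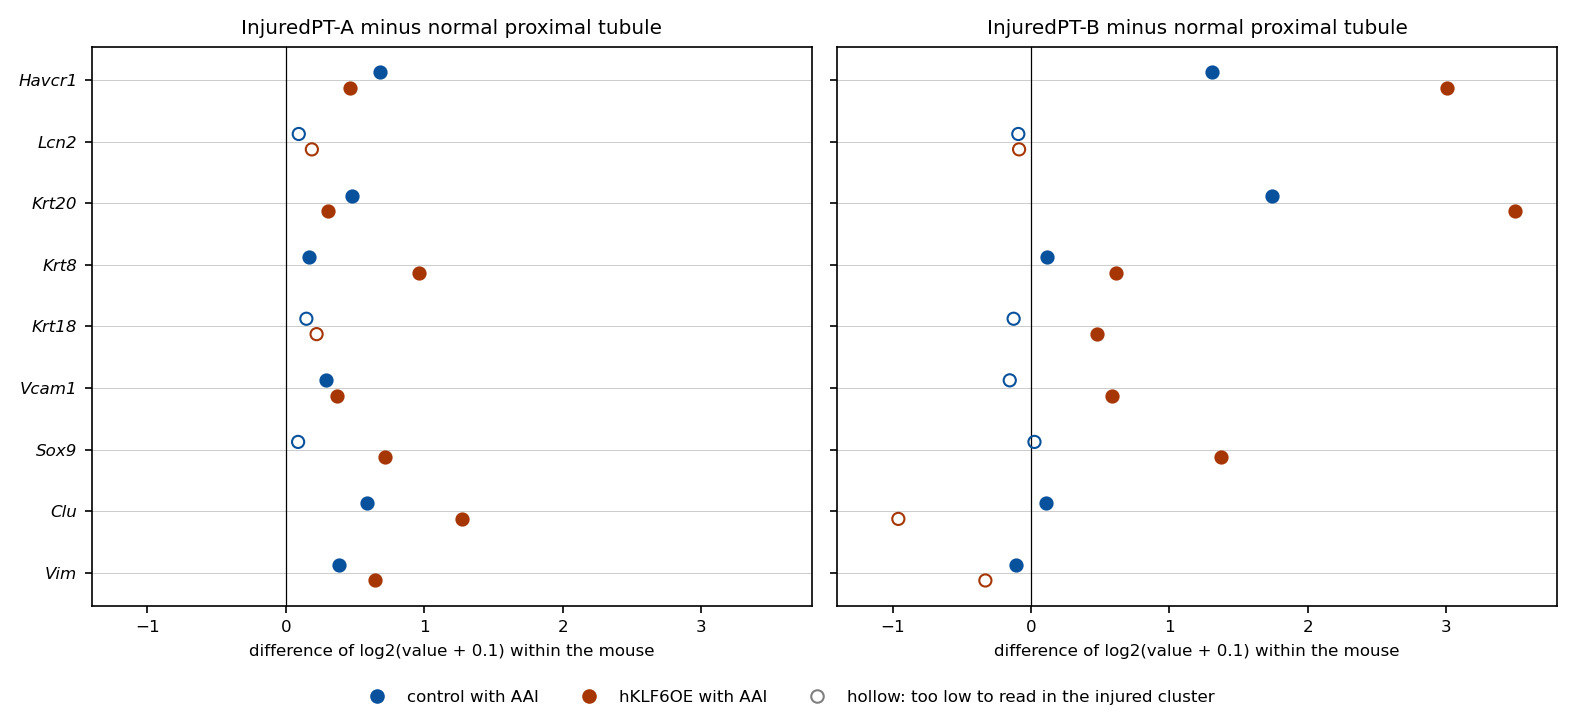
Difference of log2(value + 0.1) between each injured cluster and the mean of the 5 normal PT clusters of the same AAI-treated mouse, for the 9 markers. *Krt20* and *Havcr1* differ by over 1 in both mice in InjuredPT-B, and no marker does in InjuredPT-A.

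Between the AAI-treated mice, InjuredPT-B of hKLF6OE held 5.45-fold the *Krt20* and 4.67-fold the *Havcr1* of control. Of 10446 genes readable in both, 0.67% were at least 4-fold higher, and *Krt20* was 23 and *Havcr1* 43 in that order. The 4-fold cut was not planned and lies below both ratios, and both genes were singled out with their values in view. The share and the ranks are therefore a description. *Krt8* was 1.45-fold higher. *Clu* and *Vim* were lower in hKLF6OE, at 0.0265 against 0.202 and 0.0125 against 0.0446, with the hKLF6OE values too low to read. *Sox9*, *Krt18* and *Vcam1* were readable there in hKLF6OE only, at 0.166, 0.0462 and 0.0659, against 0.00466, 0 and 0 in control. *Lcn2* was at 0 in both. In InjuredPT-A of the same mice, control and hKLF6OE, *Krt20* stood at 0.044 and 0.0571 and *Havcr1* at 0.139 and 0.133. Each side is 1 mouse, so mouse and genotype cannot be told apart.

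Of 30 other genes known from injured tubule, more were abundant enough for the rule used over all genes. In InjuredPT-A 6 of the 8 that reached the minimum were higher in both mice, with *Cdkn1a*, the cell cycle inhibitor p21, at 4.83 against 0.418 in control and 9.31 against 0.445 in hKLF6OE, while 43.3% of all genes that reached it were higher and 27% lower. The other 2 were lower, *Itgb6* by a log2 difference of -1.37 and -1.75 and *Igfbp7* by -0.49 and -0.58. *S100a10* and *Tnfrsf12a*, the TWEAK receptor, were also higher, by 0.62 and 0.97 and by 0.56 and 0.90, and the smallest difference of the 6 was that of *Gdf15*, a stress cytokine, at 0.21 and 0.34. The medians of the 8 were 0.47 and 0.81, against 0.19 and 0.15 over all genes that reached it. *Cdkn1a*, *Tnfrsf12a* and *Hmox1*, another of the 6, reached the minimum only through InjuredPT-A, where they are high. *S100a10* did so in hKLF6OE, with a normal PT mean of 0.498. The counts and medians are therefore a description. In InjuredPT-B 3 of 6 were higher and 0 lower, against 23.4% and 13.1% of all genes. They were *Gdf15* by 0.76 and 0.67, *S100a10* by 0.64 and 1.11 and *Cdkn1a* by 0.50 and 0.61. The medians of the 6 were 0.34 and 0.47, against 0.11 and 0.10. *Cdkn1a* reached the minimum only through InjuredPT-B, as did *S100a10* in hKLF6OE, so this too is a description.

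In the mean of the normal PT clusters, 0 of the 9 markers reached the minimum of 0.5, so none could be called with AAI (7.66% of 3892 genes higher and 5.83% lower in both genotypes) or between genotypes (0.65% of 3690 higher and 1.92% lower in both treatments). *Krt8* was 0.152 in control, 0.167 in control with AAI, 0.184 in hKLF6OE and 0.145 in hKLF6OE with AAI. *Clu* was 0.133, 0.180, 0.196 and 0.146, and *Vim* was 0.0462, 0.0560, 0.0586 and 0.0414. For each of these the ranges of the 5 clusters overlapped between all 4 mice. The mean of *Vcam1* lay between 0.0104 and 0.0167, and 12 of its 20 normal PT values were at 0 or too low to read. Of the 30 other genes 4 reached the minimum, and 1 was higher with AAI in both genotypes, *Gdf15*, from 0.126 to 1.59 in control and from 0.117 to 0.939 in hKLF6OE. Genes under the minimum were not counted, whatever their difference. Among them *Cdkn1a* went from 0.00544 to 0.418 in control and from 0.00688 to 0.445 in hKLF6OE.

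*Krt8* was readable almost everywhere. By the mean of the 4 mice InjuredPT-A led, at 0.942 in control, 0.200 in control with AAI, 0.784 in hKLF6OE and 0.377 in hKLF6OE with AAI, followed by LH-DL, MC and CD_PC (0.319, 0.393, 0.421 and 0.429). The ranges of these neighbours overlapped. Its lower level with AAI in InjuredPT-A (log2 differences of -0.69 and -0.37) rested on the columns without AAI, which had many genes at 0. The lead of InjuredPT-A rested on them too: it was 12 of the 23 clusters in control with AAI, MC led by the mean of the mice with AAI, and LH-DL led when columns with over 50% of genes at 0 were left out.

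Over the 23 clusters, 207 pairs of marker and cluster were compared, and 9 reached the minimum for AAI in both genotypes. Of these 9, 0 were higher and 4 lower with AAI, where 13% of 94668 pairs over all genes were higher and 9.75% lower. They were *Krt8* in InjuredPT-A (19.7% of the genes that reached the minimum there were lower), *Clu* in CD_PC (8.54%), *Clu* in MC (8.79%) and *Clu* in LH-DL (13.9%). Between genotypes 8 pairs reached the minimum, with 2 higher and 2 lower in hKLF6OE both without and with AAI, where 4.8% of 90423 pairs were higher and 7.03% lower: *Clu* was higher in MC (as were 8.84% of the genes that reached the minimum there) and lower in IC-A (7.92%), and *Vim* was higher in Macrophage (13.8%) and lower in LH-DL (13.1%). The AAI-treated and untreated mice of each genotype serve both comparisons, so these are not independent. Pairs in LH-DL, Macrophage and InjuredPT-A rest on at least 1 column with over 50% of genes at 0.

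*Clu*, clusterin, was highest in CNT in all 4 mice: 1.37 in control, 1.34 in control with AAI, 1.53 in hKLF6OE and 0.790 in hKLF6OE with AAI. MC followed at 0.653, 0.335, 0.948 and 0.658, and DCT at 0.598, 0.576, 0.715 and 0.451, so that the ranges of CNT and MC overlapped. In CD_PC the level was 0.714 and 0.823 without AAI and 0.185 and 0.446 with it, and the pairs did not overlap. The log2 differences were -0.53 in control and -0.33 in hKLF6OE. In MC they were -0.31 and -0.23, and in LH-DL, where control with AAI was at 0, -0.60 and -0.77. Between genotypes *Clu* in MC was higher in hKLF6OE by 0.24 without AAI and 0.31 with it, while *Clu* in IC-A, the type A intercalated cells, was at 0.643 and 0.706 in control and 0.409 and 0.375 in hKLF6OE, lower by -0.22 and -0.31. InjuredPT-A ranged from 0 in control, in a column with 62.6% of genes at 0, to a readable 1.51 in hKLF6OE, with 40.8% at 0.

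*Vim*, vimentin, was highest in podocytes of 3 mice: 0.745 in control, 1.92 in control with AAI, 1.35 in hKLF6OE and 0.963 in hKLF6OE with AAI. In the last of these the Macrophage cluster stood above it, at 1.28. The Macrophage values were 0.230, 0.165 (too low to read), 0.893 and 1.28, higher in hKLF6OE by log2 differences of 0.62 and 0.97. LH-DL was at 0.593, 1.11, 0.108 (too low) and 0.270, lower in hKLF6OE by -0.52 and -0.73. The podocyte markers in LH-DL summed to 9.82, 11.6, 1.24 and 12.8 in the same order, and the sum of 11 urothelial genes described below was 0.593, 0, 7.68 and 1.04. Their part in the *Vim* difference was not tested. MC (0.251 to 0.629), EC-2 (0.245 to 0.566) and EC-1 (0.159 to 0.420) followed, with overlapping ranges.

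*Vcam1* was led by EC-2, the cluster with the highest endothelial markers (a sum of 61.0 to 65.4), at 0.616 in control, 0.492 in control with AAI, 0.761 in hKLF6OE and 0.558 in hKLF6OE with AAI. The Macrophage cluster was at 0.249, 0.674, 0.126 and 0.166, the last too low to read, and its range overlapped that of EC-2. In EC-1 the level was 0.0855, 0.128, 0.163 and 0.0704, and PT markers summed to 73.7 to 94.7 there beside at least 9.86 for endothelial ones. MC was at 0.413, 0.215, 0.141 and 0.0514. A single value of 0.869 in LH-AL-3 of hKLF6OE with AAI stood beside 0 in the other 3 mice, in a column with 61.5% of genes at 0.

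*Sox9* was low throughout, and in hKLF6OE without AAI it was at 0 in all 23 clusters. Of all genes 8.24% were at 0 in every cluster of that mouse, and of 1017 genes readable in about as many columns of the other 3 mice as *Sox9* (within 2 of 9) 1.18% were. The readable values were 0.111 in LH-AL-2 of control, 0.077 in DCT and 0.0696 in LH-AL-2 of control with AAI, and 6 in hKLF6OE with AAI: 0.166 in InjuredPT-B, 0.0991 in DCT, 0.0782 in LH-AL-2, 0.0714 in EC-2, 0.068 in InjuredPT-A and 0.0624 in CNT. No value in a normal PT cluster could be read.

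*Lcn2* could be read nowhere. It was at 0 in 65 of 92 columns, among them InjuredPT-B of all 4 mice, and its highest value was 0.109 in IC-B-2 of hKLF6OE with AAI, under the floor of that column. The same held for 8.51% of all genes. No level of *Lcn2* could be given for any cluster, and its absence was not shown either.

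By the mean of the 4 mice *Krt18* was highest in IC-B-2, a type B intercalated cluster. It stood there at 0.613 in control, 0.313 in control with AAI, 0.302 in hKLF6OE and 0.198 in hKLF6OE with AAI. IC-B-2 led in both AAI-treated mice. In control LH-AL-3 stood above it, at 0.739 in a column with 62.0% of genes at 0, and in hKLF6OE LH-DL did, at 0.335. *Krt18* otherwise followed a single mouse: it was readable in 15 clusters of hKLF6OE without AAI, against 3 in control, 7 in control with AAI and 6 in hKLF6OE with AAI. Its mean in normal PT was 0.0327 in that mouse, where all 5 clusters were readable, against 0.0111 in control, 0.00907 in control with AAI and 0.00525 in hKLF6OE with AAI. The range of the 5 clusters lay above that of hKLF6OE with AAI and overlapped those of both control mice. No normal PT value of hKLF6OE with AAI was readable, however. In control only PT-S1-S2-1 was (0.0367), and in control with AAI only PT-S3-1 (0.03). Being readable in at least 8 clusters more than in any other mouse held for 0.0357% of all genes, which were *S100a6*, *Ociad2*, *Sgcz*, *Eddm3b*, *Ly6d*, *Krt18* and *Upk3a*. The cutoff of 8 was the lead of *Krt18* itself, which meets it by construction, so the share is a description. Counted the same way, 2 genes stood out in control, 8 in control with AAI and 7 in hKLF6OE with AAI.

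*Upk3a*, a uroplakin of the umbrella cells that line the renal pelvis and bladder, and *Ly6d* were readable in 0 clusters of the other 3 mice. A list of 12 urothelial genes, drawn up after these values were seen, was therefore summed in each cluster. All 12 were above 0 somewhere in hKLF6OE without AAI, against 5 in control, 4 in control with AAI and 6 in hKLF6OE with AAI. *Upk2*, *Upk3b*, *Psca*, *Krt5* and *Krt15* were at 0 in every cluster of the other 3 mice. Without *Krt7*, which principal cells express in all 4 mice, the sum of the other 11 had a median over clusters of 0.246 in hKLF6OE, against 0.00668 in control, 0.02 in control with AAI and 0.0189 in hKLF6OE with AAI. It was above 0 in 22 of 23 clusters of hKLF6OE without AAI, against 12 in control, 17 in control with AAI and 17 in hKLF6OE with AAI. In hKLF6OE without AAI it was highest in LH-DL, at 7.68. There *Krt18* stood at 0.335, *Krt8* at 0.672 and *Clu* at 0.959, each the highest of the 4 mice in that cluster. *Vim* (0.108, too low to read) and *Havcr1* (0) were the lowest of the 4 there, and *Vcam1* was at 0, as it was in control. *Krt20*, a keratin also known from umbrella cells, was at 0 in all 23 clusters of hKLF6OE without AAI. Without *Upk3a* and *Ly6d*, which had prompted the list, the median was 0.217 in that mouse, against 0 in control, 0.02 in control with AAI and 0.017 in hKLF6OE with AAI. *Sfn* ran the other way, above 0 in 3 clusters of that mouse and in 15 of control with AAI. *Krt19* is also among the 30 injury genes. The part of the urothelial genes in the *Krt18* values was not tested.

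**Figure D5:**
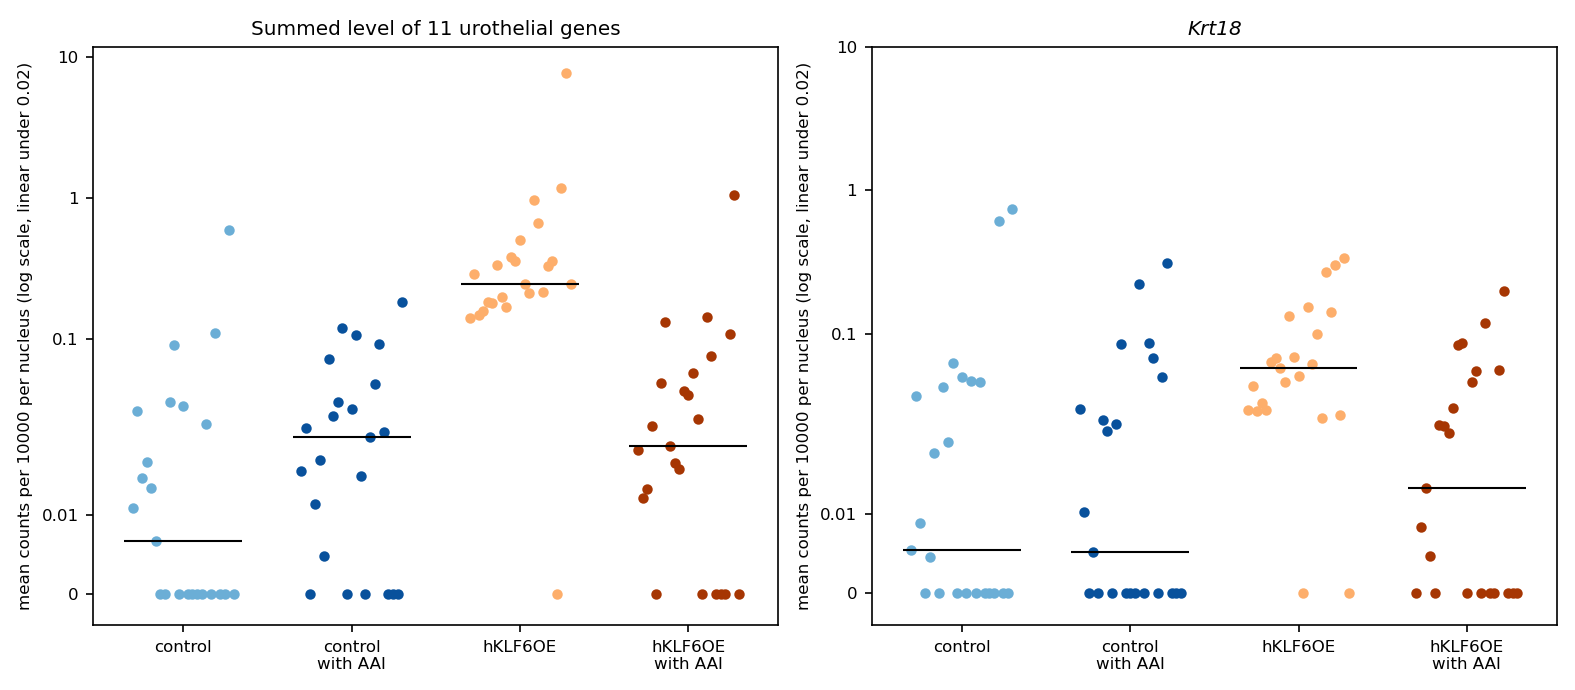
Summed level of 11 urothelial genes (left) and level of *Krt18* (right), as mean counts per 10000 per nucleus on a log scale that is linear under 0.02, in the 23 clusters of each mouse (a point for each cluster, a line for the median). In hKLF6OE without AAI the sum is above 0 in 22 of 23 clusters, with a median of 0.246. It is above 0 in 12 clusters of control, 17 of control with AAI and 17 of hKLF6OE with AAI.

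*Krt8* and *Krt18*, whose keratins pair in a filament, are neighbours on chromosome 15, 23.7 kb apart on opposite strands in GRCm38 (*Krt8* from 101996698 to 102004482, minus, and *Krt18* from 102028180 to 102032027, plus). *Havcr1* (chromosome 11, 46735080 to 46779578, plus) spans 44.5 kb and *Krt20* (chromosome 11, 99428403 to 99438150, minus) 9.75 kb. *Krt8* and *Vcam1* each overlap a gene on the other strand (*Gm36026* and *Gm43109*), and the strand of counting is not given in the sources used here, so reads of those genes could not be told apart from theirs.

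For each marker the most similar genes were found by Pearson r of log2(mean of 4 mice + 1) over the 23 clusters, as a description. The genes compared were the 8112 with a mean of at least 0.5 in their highest cluster. All points share the 4 libraries and their depth. Among these genes *Havcr1* ran closest to *Pgd* (0.81), *Slc4a11* (0.77) and *Txnrd1* (0.76), and *Krt20* to *Pgd* (0.76), *Naxd* (0.75) and *Abcb1b* (0.72). *Havcr1* and *Krt20* fell short of that mean, at 0.382 and 0.395 in InjuredPT-B, and were not compared. The r of *Havcr1* and *Krt20* with each other was higher, at 0.86. It leans on InjuredPT-B, since the next highest means were 0.171 for *Havcr1* (LH-DL, with no readable value) and 0.0426 for *Krt20* (MC). The r without that cluster was not computed. *Vcam1* ran with *Gab3* (0.97), *Amotl1* (0.97) and *Oasl2* (0.97), and *Vim* with *Galnt10* (0.94), *Plekho1* (0.94) and *Pag1* (0.93). *Clu* ran with *S100g* (0.86), *Klk1* (0.80) and *Adamts3* (0.80), and *Krt8* with *Pcbp2* (0.89), *S100a11* (0.84) and *1110004F10Rik* (0.84). *Krt18* ran with *Sgcd* (0.95), *Avl9* (0.88) and *Sobp* (0.86) and *Sox9*, from 9 readable values, with *Fam124a* (0.70), *Gm33543* (0.68) and *Tfrc* (0.68). *Lcn2* had no readable value behind its r of 0.79 with *Fam162a*.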

How the data were processed

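Nuclei of the kidney cortex of 4 mice, 1 for each condition, were sequenced on the 10x platform by the authors, as 1 technical batch. Reads were counted with Cell Ranger 3.1.0 on a mouse pre-mRNA reference (mm10), which includes introns, and nuclei were filtered and clustered with Seurat 4.3. No step against doublets is named for them. The deposited signal is the mean over nuclei of counts scaled to 10000, for 23 clusters and 4 mice. Neither nuclei, barcodes nor counts are in the table, and the study gives reads per nucleus only as a range over samples, so the depth of a column is unknown and no interval is given. Cluster names follow the order of the sheets of the study's marker table, which could be checked on only a part of the sheets.

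Of 19632 rows, 23 with date-like names were left out. Differences were taken as log2(value + 1), with a minimum of 0.5 and a threshold of 0.2, the same way in both mice, genotypes or treatments, and counted over all genes as the background. No test was made, since each condition is 1 mouse. The genes named are the 9 markers, the 3 genes most like each, up to 3 genes of each end among 30 other injury genes, and *Klf6*. The markers and lists were chosen with earlier results of these data known. Genes named from counts over all genes, and the urothelial list, were picked with their values in view. The script was tested on simulated data. Python 3.11.15, numpy 2.4.6, pandas 2.3.3 and matplotlib 3.10.9 were used. The alternatives were another pseudocount, minimum or threshold, PT-S3 clusters as the reference, centring, single mice, and leaving out sparse columns.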

Additional observations from a re-analysis of the deposited data

Results flagged for a closer look

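*Vim* in podocytes moved in opposite directions with AAI in the 2 genotypes, from 0.745 to 1.92 in control, a log2 difference of 0.74, and from 1.35 to 0.963 in hKLF6OE, a log2 difference of -0.26. The difference was not tested, since each condition is 1 mouse. The 4 podocyte markers summed to 64.1 in control, 65.3 in control with AAI, 64.0 in hKLF6OE and 67.7 in hKLF6OE with AAI.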

How the results depend on the processing

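Of the alternatives, 36 gave the same count within 1.5 times and 17 did not. For the injured clusters and the normal PT mean no marker reached the minimum. There a higher minimum, a higher threshold or centring could only return 0, so those settings are not a check. The direction of single pairs was not compared between settings. The count of markers in InjuredPT-B, 0 as given, was 2 with no minimum, 2 in hKLF6OE alone and 2 with a pseudocount of 0.1 and a threshold of 1, whether the injured value or the larger value had to be readable. The 4 pairs called with AAI, all lower, became 9 with no minimum (4 higher and 5 lower). With a pseudocount of 0.1 they became 6 (1 higher and 5 lower). They became 0 with a minimum of 2, 1 with a threshold of 0.5 and 2 without sparse clusters, with none higher. In control alone 10 were called (4 higher and 6 lower), and in hKLF6OE alone 16 (6 higher and 10 lower). The 4 pairs called between genotypes became 9 with no minimum, 0 with a minimum of 2, 2 with a threshold of 0.5, 11 without AAI alone, 13 with AAI alone and 2 without sparse clusters. Values too low to read were 490, and 785 with a floor of 0.5. The highest cluster stayed for 7 markers without AAI, 6 with AAI and 7 without sparse columns. No paired analysis was possible because each condition is 1 mouse and the result comes from no test. For the same reason no replicate could be left out. The number of nuclei behind a value is not in the table, so the counting error of low values is unknown.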
